A study of Mus musculus with 2 samples.

Results

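The genes described here encode the T cell receptor complex and the proteins that carry its signal just inside the membrane: the CD3 and zeta chains, the pre-T cell receptor alpha chain, and kinases, adaptors, exchange factors, phosphatases, ubiquitin ligases and the calcineurin to NFAT branch. They were taken as a list of 51 gene symbols, and all 51 were found among the 27179 genes of the count table. RNA was sequenced from splenic cells, sorted by flow cytometry, of mice that had received ALL65, which is a T-ALL (acute lymphoblastic leukaemia of the T lineage) that arose in a mouse. The Dox library came from GFPmid cells of mice given doxycycline (Dox) for 3 days, and the untreated library from GFPhigh cells of mice given none. Both carry the transgenes Vav-tTA and TRE-GFP-shIkaros. The Vav promoter is active across blood cells, and its tetracycline transactivator drives GFP together with a hairpin against Ikaros, a zinc finger transcription factor. Dox stops the hairpin, and Ikaros from the cells' own gene, Ikzf1, returns. All cells derive from 1 leukaemia, and the groups differ in GFP gate as well as in treatment, so that these cannot be told apart.

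An antigen receptor has no enzyme activity of its own. Lck phosphorylates tyrosine motifs in the tails of the CD3 and zeta chains, Zap70 binds them and phosphorylates the scaffolds Lat and Slp76 (Lcp2), and these gather Plcg1, Vav1 and Ras activators. Plcg1 then makes diacylglycerol, which recruits Prkcq and Rasgrp1, and inositol trisphosphate, which releases calcium and so activates calcineurin and NFAT. Phosphatases, Csk, Cbl ligases and diacylglycerol kinases oppose these steps. In thymocytes the pathway is used at the pre-receptor checkpoint and again in selection by the mature receptor.

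The design text speaks of 3 mice per group, but the table has 1 column per group, so the spread between mice is unknown and no test was run. The Dox library held 14457475 counts and the untreated library 7477988. Levels are CPM, counts scaled to a common library size, or RPKM, which is CPM per kilobase of gene length, where genes are compared with each other. Ratios are log2 of Dox over untreated with a prior count of 2, which pulls low genes towards 0, and the bounds after them are exact 95% intervals that cover counting error only. Ikzf1 had 1455 CPM in the Dox library and 262 CPM in the untreated library, a ratio of 2.47 (2.41 to 2.54), which is the direction the labels give. The sort held T lineage RNA. All 8 T lineage markers (Thy1, Cd3e, Lck, Bcl11b, Tcf7, Gata3, Cd8a and Cd4) were present, the lowest being Cd4 at 94.97 CPM with Dox and 53.4 CPM without. Of these markers, Cd3e and Lck are also among the genes described here. Summed over 7 B cell markers the level was 2.25 CPM in the Dox library and 1.32 CPM in the untreated library, over 5 NK cell markers 0.211 and 0.658 CPM, and over 8 myeloid markers 17.4 and 16.4 CPM. Of the myeloid markers, Itgam had 14.7 CPM with Dox and 8.42 CPM without and Lyz2 had 1.69 and 7.24 CPM, and their part in the results was not tested. Ms4a1 and Pax5, Mpo and Ly6g, and Ncr1 and Klrk1 had 0 counts in both libraries. Fewer cells of a type and less RNA per cell cannot be told apart in such bulk samples.

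Most of the pathway stood slightly higher with Dox, among activators and brakes. The 51 genes were chosen with earlier results of these data known, so the shares given here describe and do not test. Of the 51 genes, 49 reached 5 CPM in the higher library. Of these, 41 had a ratio above 0, against 51.8% of the 10113 genes past that minimum. At least 1.5-fold higher were 13, where 6.28% of all genes were, and at least 1.5-fold lower was 1, Vav3, where 6.18% of all genes were. At least 2-fold higher were 4 (Ubash3b, Prkcq, Dgka and Txk; 2.21% of all genes), and 0 were at least 2-fold lower (2.24% of all genes). The median ratio was 0.29, a 1.23-fold difference, beside 0.01 over all genes. The counting interval lay above 0 for 38 of the 49 genes and below 0 for 7, where the shares of all genes were 26.9% and 23.8%. These genes are more abundant than most, with a median of 196 CPM beside 48.4 CPM over all genes, which narrows their intervals. The gene just past the 1.5-fold line was Ptpn22 at 0.64, and the gene just short of it Fyb at 0.55.

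**Figure D1:**
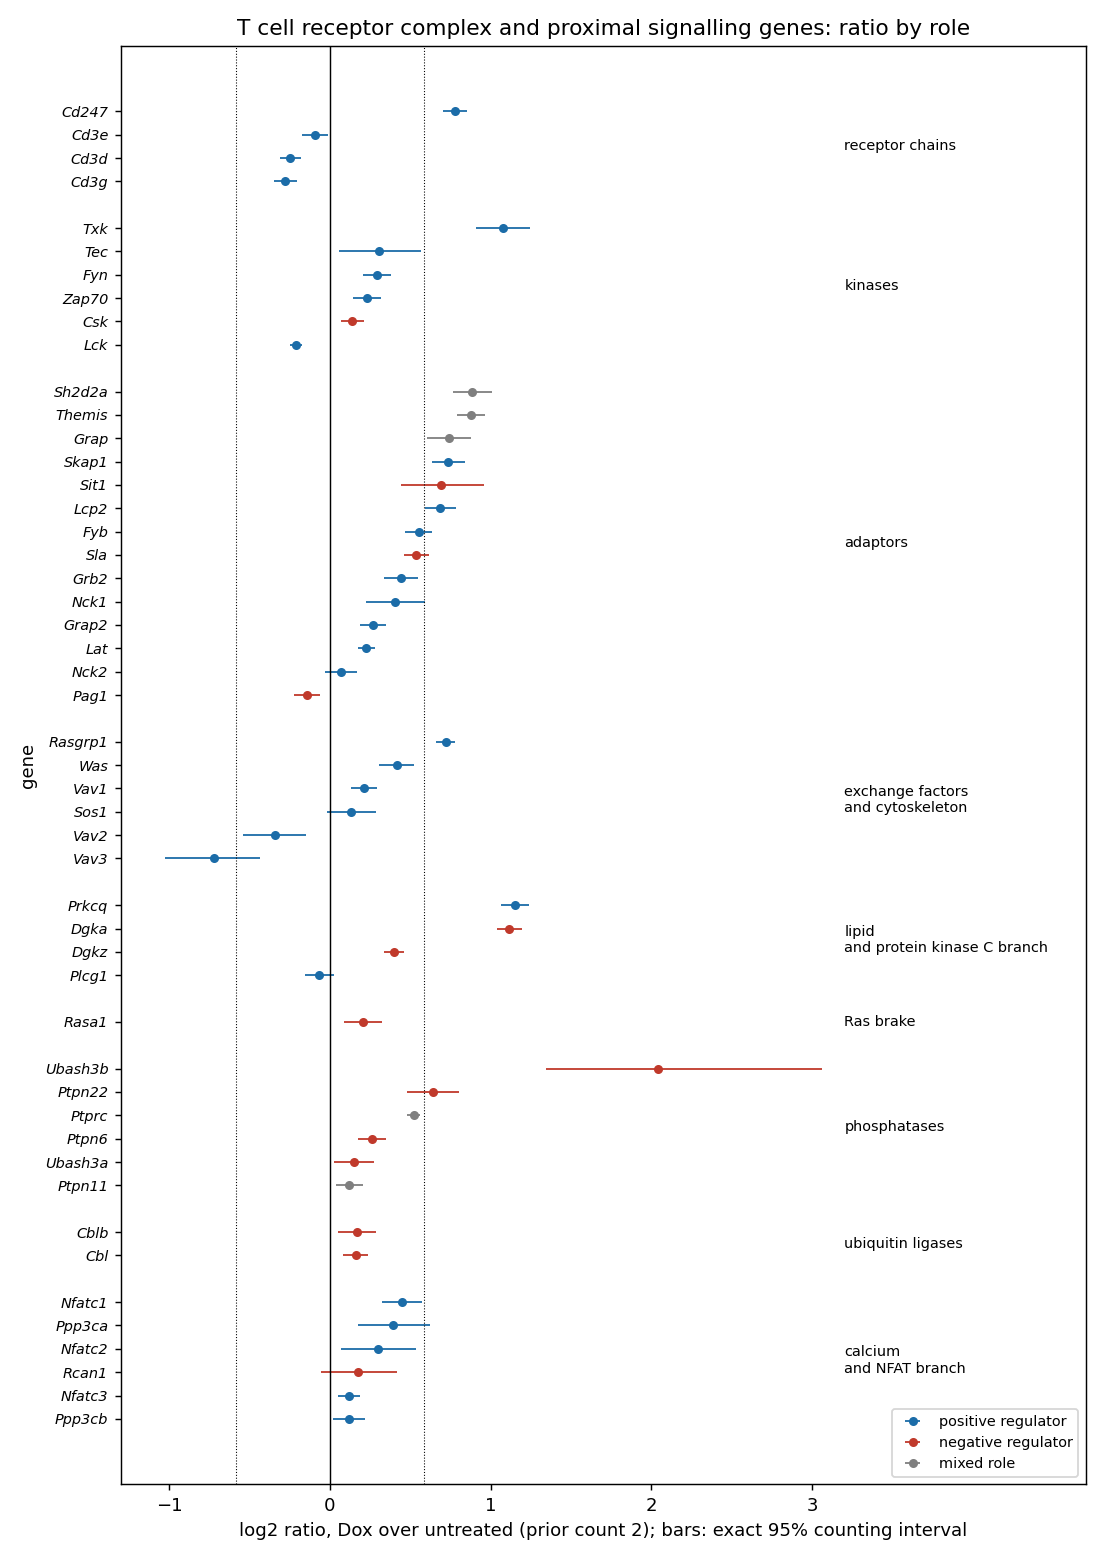
Log2 ratio of Dox over untreated (horizontal axis) for the 49 genes past 5 CPM, grouped by role down the page, with exact 95% counting intervals from 1 library per group; dotted lines mark 1.5-fold and colours mark positive, negative and mixed regulators. Most points lie right of 0, with the CD3 chains, Lck, Pag1, Plcg1, Vav2 and Vav3 to the left of it.

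The genes at the ends of this range were Ubash3b at 2.04 and Prkcq at 1.15 on the higher side, and Vav3 at -0.72 and Vav2 at -0.34 on the lower side. Their promoter windows, 250 bases before to 50 after the transcription start, are shown since Ikaros binds DNA at motifs with a GGGAA core. The sequences are from RefSeq, build GRCm38.p6, written 5′ to 3′ on the gene's strand, and for Ubash3b and Vav3, which have 2 and 3 listed windows, the window listed first is given. Capitals mark each GGGAA or its reverse complement TTCCC.
Ubash3b, chr9:41158013-41158312, minus strand: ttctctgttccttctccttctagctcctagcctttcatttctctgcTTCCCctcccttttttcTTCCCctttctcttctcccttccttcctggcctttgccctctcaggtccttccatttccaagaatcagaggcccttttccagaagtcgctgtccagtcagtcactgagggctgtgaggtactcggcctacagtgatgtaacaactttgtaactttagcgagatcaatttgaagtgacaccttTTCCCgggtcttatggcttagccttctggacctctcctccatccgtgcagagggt
Prkcq, chr2:11172132-11172431, plus strand: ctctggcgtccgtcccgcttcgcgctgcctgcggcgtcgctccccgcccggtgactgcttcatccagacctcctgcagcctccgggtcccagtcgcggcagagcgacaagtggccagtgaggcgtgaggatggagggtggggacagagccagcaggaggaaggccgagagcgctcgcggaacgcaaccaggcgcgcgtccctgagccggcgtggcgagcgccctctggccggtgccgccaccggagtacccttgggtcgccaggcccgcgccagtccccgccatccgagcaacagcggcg
Vav3, chr3:109340433-109340732, plus strand: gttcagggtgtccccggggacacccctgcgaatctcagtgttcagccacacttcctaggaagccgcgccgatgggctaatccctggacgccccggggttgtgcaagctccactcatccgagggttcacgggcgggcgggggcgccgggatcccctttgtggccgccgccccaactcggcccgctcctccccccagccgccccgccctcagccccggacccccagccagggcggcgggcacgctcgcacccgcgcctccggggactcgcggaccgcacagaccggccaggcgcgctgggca
Vav2, chr2:27427559-27427858, minus strand: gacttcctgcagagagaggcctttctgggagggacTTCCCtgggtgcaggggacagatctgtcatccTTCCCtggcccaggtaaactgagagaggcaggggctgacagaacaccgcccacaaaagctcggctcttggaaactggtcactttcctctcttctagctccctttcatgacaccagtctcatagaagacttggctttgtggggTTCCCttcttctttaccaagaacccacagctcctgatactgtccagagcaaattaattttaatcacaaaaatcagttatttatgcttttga

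The printed windows of Ubash3b and Vav2 each held 3 copies of the core and those of Prkcq and Vav3 held 0. The core thus stood in a printed window at either end of the range. Copies in the windows of Ubash3b and Vav3 that are not printed were not counted. The printed windows of Ubash3b and Prkcq lie inside these genes, whose outermost starts are at bases 41161692 and 11171905. The windows of Prkcq and Vav3 are rich in G and C, at 73.0% and 74.3%, beside a median of 52.7% over all windows. The longer motif TGGGAA (reverse complement TTCCCA), which contains the core, was in none of the 4 windows printed. Windows were listed for 44 of the 51 genes. On either strand, TGGGAA was found in 17 of their 65 windows, and in 25.6% of all 32851 windows. The core was found in 36 of the 65, and in 62.7% of all windows. Among genes at least 1.5-fold higher with Dox, 4 of 17 windows held TGGGAA, and among the other genes past the minimum 12 of 45 did. The core was in 7 of the 17 windows and in 27 of the 45. These windows belong to 10 and 32 genes, and Grap, Sh2d2a and Skap1, also at least 1.5-fold higher, had none listed. A gene was counted if any of its windows matched, so that shares by gene also depend on the number of windows per gene. The 44 genes had 65 windows, and all 27025 genes with a window had 32851. By gene, TGGGAA was found for 3 of 10, 12 of 32 and 16 of all 44, beside 28.3% of all genes. The core was found for 5 of 10, 23 of 32 and 30 of all 44, beside 65.5% of all genes. A match in such a window is a match of letters and not a binding site.

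The receptor chains went apart. The CD3 delta, epsilon and gamma chains, which pair into the dimers that hold the receptor at the membrane, were slightly lower with Dox, while the zeta chain, which carries the most signalling motifs of the complex, was higher. Cd247, the zeta chain gene, had 429 CPM in the Dox library and 251 CPM in the untreated library, a ratio of 0.78 (0.70 to 0.85) that was above that of 96.1% of all genes. Cd3g had 289 CPM with Dox and 350 CPM without, and its ratio was -0.28 (-0.35 to -0.21). Cd3d had 316 and 375 CPM, with a ratio of -0.25 (-0.31 to -0.18). Cd3e was the least different, at 244 CPM in the Dox library and 260 CPM in the untreated library and a ratio of -0.09 (-0.17 to -0.01). Of all genes, 17.1% had a lower ratio than Cd3g, 19.3% than Cd3d and 34.9% than Cd3e, so these 3 stood less far out than Cd247. The CD3 genes lie together on chromosome 9 within 40092 bases, the starts of Cd3d and Cd3g 1355 bases apart, and Cd247 lies on chromosome 1. Per length, the level of Cd247 was 0.549 times that of Cd3e in the Dox library (0.527 to 0.573) and 0.300 times in the untreated library (0.282 to 0.320). The balance between these chains thus differed 1.83-fold (1.69 to 1.97), a value that no scaling of the libraries can change. In the GENCODE annotation 56.4% of the exon bases of Cd247 lie in exons of the oppositely transcribed Pou2f1. Without a stated strand setting reads of the pair cannot be told apart, so the level of Cd247 per length is uncertain beyond its interval. Such overlaps with any gene exceeded 5% of the exon bases also for Fyb, Ptpn6, Plcg1 and Lcp2, at 10.2% or less. Pou2f1 itself had 88.9 CPM with Dox and 85.3 CPM without, a ratio of 0.06 (-0.08 to 0.20). Ptcra, which encodes the pre-T cell receptor alpha chain and marks thymocytes before the mature alpha chain is made, had 0 counts in the Dox library and 3 in the untreated library. Both are at or under the detection limit of 3 counts (0.211 CPM with Dox, 0.395 CPM without), so no fold is given.

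The kinases that start the cascade were abundant and differed little. Lck, the coreceptor-bound kinase of the Src family, had the highest level per length of all 51 genes without Dox. With Dox it was second to Lat. It stood at 503 RPKM in the Dox library and 582 RPKM in the untreated library, from 1156 and 1338 CPM, with a ratio of -0.21 (-0.25 to -0.18). Fyn, the other Src family kinase of T cells, went the other way, at 252 and 205 CPM and a ratio of 0.29 (0.21 to 0.38). Relative to Lck, Fyn was 1.42-fold higher with Dox (1.33 to 1.52), though per length it reached 0.135 times the level of Lck in the Dox library and 0.0954 times in the untreated library. Zap70, which binds the phosphorylated chains, had 240 CPM with Dox and 205 CPM without, a ratio of 0.23 (0.14 to 0.32). Its relative Syk, used mainly by B cells and early thymocytes, had 10 counts in the Dox library and 0 in the untreated library. That is 0.703 CPM in the Dox library, against a limit of 0.395 CPM in the untreated library, and the lower bound of the counting interval was 0.26 on the log2 scale. Csk, which switches Src family kinases off, had a ratio of 0.14 (0.07 to 0.21).

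The Tec family kinases phosphorylate Plcg1 once it sits on Lat and Slp76. Txk, also called Rlk, was 2.10-fold higher, at 101 CPM in the Dox library and 47.8 CPM in the untreated library, with a ratio of 1.07 (0.91 to 1.25). Tec had 30.6 CPM with Dox and 24.7 CPM without and a ratio of 0.31 (0.06 to 0.56). Per length Tec was at 0.268 times the level of Txk in the Dox library (0.240 to 0.299) and 0.457 times in the untreated library (0.381 to 0.546), so that Txk was the more abundant of the pair in both.

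**Figure D2:**
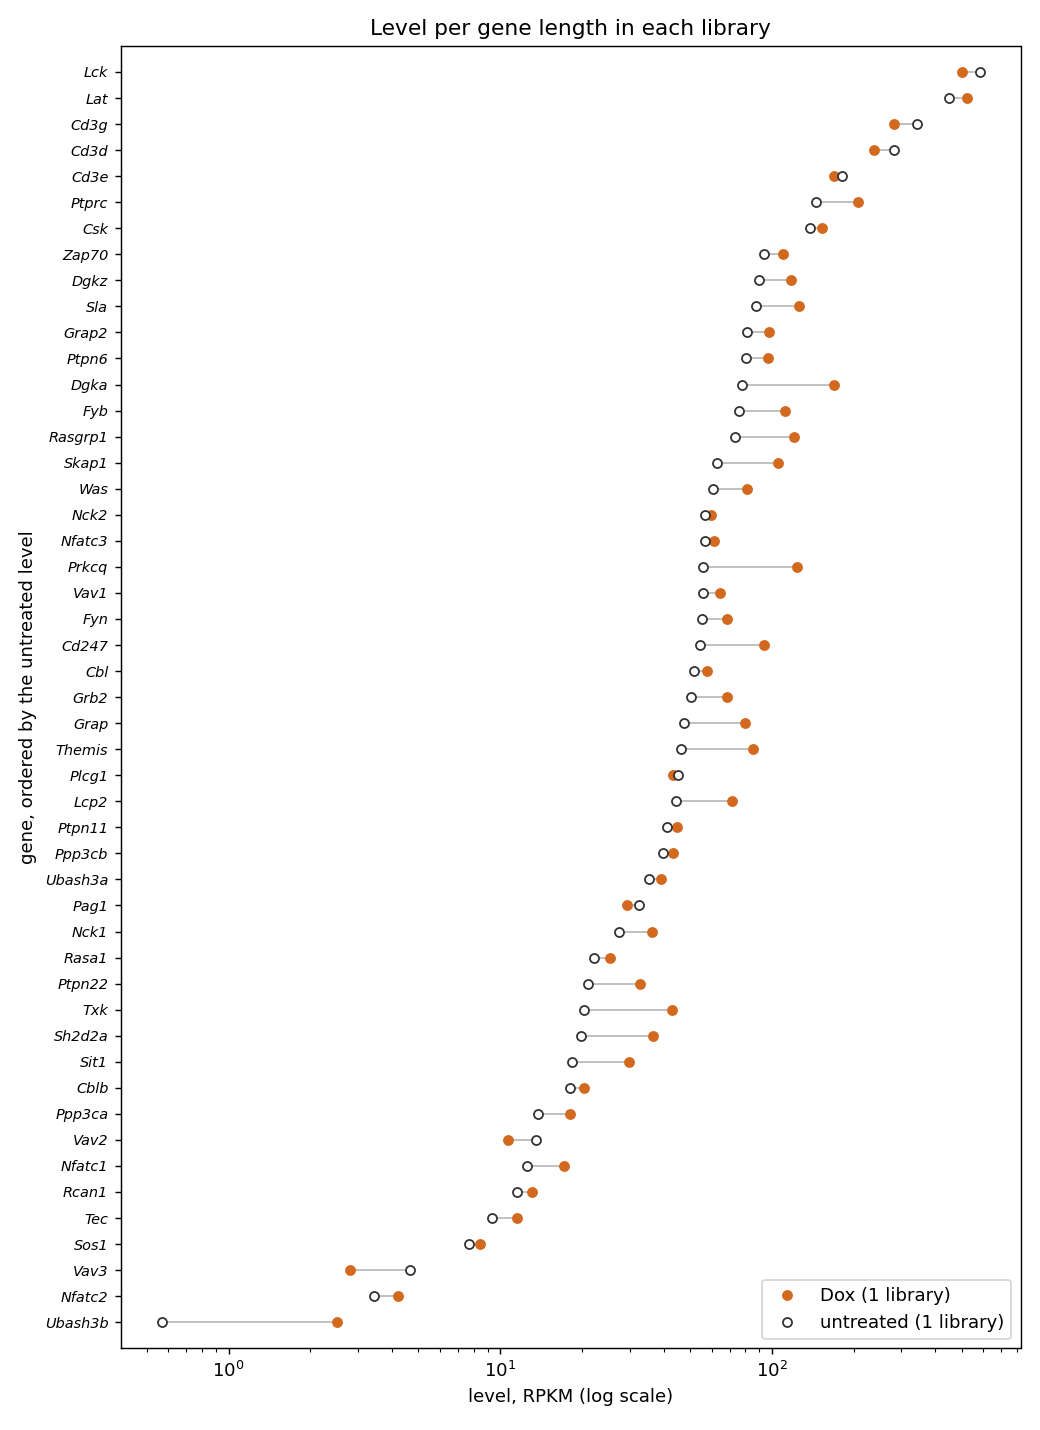
Level of each of the 49 genes past 5 CPM per gene length (RPKM, logarithmic horizontal axis), with filled points for the Dox library and open points for the untreated library, ordered by the untreated level. Lck, Lat and the CD3 genes are at the top, Lck at 503 RPKM with Dox and 582 RPKM without, and Ubash3b is at the bottom, at 2.51 and 0.568 RPKM.

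The adaptors, which have no enzyme activity and join proteins together, were the role with the most genes. Of 14 adaptors 6 were at least 1.5-fold higher with Dox and 0 lower, where the shares of all genes were 6.28% and 6.18%, and their median ratio was 0.54. The scaffold Lat was abundant and differed little, at 525 RPKM in the Dox library and 449 RPKM in the untreated library, with a ratio of 0.22 (0.17 to 0.28). Lcp2, which encodes Slp76, had 240 CPM with Dox and 149 CPM without, a ratio of 0.69 (0.59 to 0.79). Sh2d2a, which encodes the Lck-binding adaptor TSAd, had 174 and 94.1 CPM and a ratio of 0.88 (0.77 to 1.01). Themis, a protein of thymocytes needed for their selection, had nearly the same ratio, 0.88 (0.79 to 0.96), at 338 CPM in the Dox library and 184 CPM in the untreated library.

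Among the adaptors of integrin activation, Skap1 had 230 CPM with Dox and 138 CPM without, a ratio of 0.74 (0.64 to 0.84). Its binding partner Fyb, also called ADAP, stood at 299 and 204 CPM and 0.55 (0.47 to 0.64). The Grb2 family links Lat to Ras activators and to Slp76, and its members were unequal. Grap had 127 CPM in the Dox library and 76.1 CPM in the untreated library, a ratio of 0.74 (0.60 to 0.88). Grb2 itself stood at 0.44 (0.34 to 0.55) and Grap2, also called Gads, at 0.27 (0.19 to 0.35), so that Grap relative to Grb2 was 1.23-fold higher (1.09 to 1.39). The Nck adaptors, which bind CD3 epsilon and the actin machinery, had ratios of 0.41 (0.23 to 0.59) for Nck1 and 0.07 (-0.03 to 0.17) for Nck2.

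Of the adaptors that restrain the pathway, Sit1, a membrane protein that recruits phosphatases, was higher, at 35.9 CPM with Dox and 22.1 CPM without and a ratio of 0.69 (0.44 to 0.96). Sla, the Src-like adaptor that targets receptor chains for degradation, had 365 and 252 CPM and a ratio of 0.54 (0.46 to 0.61). Pag1, the membrane anchor of Csk, was the adaptor with a ratio below 0, at 243 CPM in the Dox library and 268 CPM in the untreated library and -0.14 (-0.22 to -0.06).

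The Vav exchange factors, which activate small GTPases, had ratios in opposite directions. Vav1, the form of blood cells and the source of the promoter in the driver transgene, had 269 CPM with Dox and 233 CPM without, a ratio of 0.21 (0.13 to 0.29). Vav2 had 37.3 CPM in the Dox library and 47.4 CPM in the untreated library, a ratio of -0.34 (-0.54 to -0.15). Vav3 had 14.3 and 23.7 CPM, from 203 and 180 counts, a 1.65-fold lower level at a log2 ratio of -0.72 (-1.03 to -0.43), and 4.20% of all genes had a lower ratio. Vav1 was the most abundant of the 3 per length in both libraries. Relative to Vav1, Vav3 per length stood at 0.0434 in the Dox library (0.0375 to 0.0500), against 0.0834 in the untreated library (0.0712 to 0.0973). Was, the actin regulator that acts with Vav1, stood at 0.41 (0.31 to 0.52).

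The lipid and protein kinase C branch was Plcg1, Prkcq, Dgka and Dgkz. Of these 4 genes 2 were at least 2-fold higher, an effector and a brake, where 2.21% of all genes were. Rasgrp1, Sos1 and Rasa1, which have other roles, are given beside them. Prkcq, the protein kinase C theta that diacylglycerol recruits, was 2.22-fold higher, with 411 CPM in the Dox library and 185 CPM in the untreated library and a ratio of 1.15 (1.07 to 1.24). Rasgrp1, the Ras activator that diacylglycerol recruits, had 617 CPM with Dox and 374 CPM without, a ratio of 0.72 (0.66 to 0.78). Dgka, a kinase that removes diacylglycerol, was 2.17-fold higher, at 476 and 220 CPM and a ratio of 1.11 (1.04 to 1.19). Prkcq relative to Dgka differed by 1.02-fold (0.946 to 1.11), an interval that holds 1, while Rasgrp1 relative to Dgka was 0.760 times as high with Dox (0.709 to 0.814). Dgkz, the other main diacylglycerol kinase of T cells, had a ratio of 0.40 (0.34 to 0.46). Per length, Dgka was at 1.43 times Dgkz in the Dox library (1.38 to 1.48) and 0.872 times in the untreated library (0.821 to 0.926), so that the order of the pair was turned round. Plcg1, the enzyme that makes diacylglycerol, had a ratio of -0.07 (-0.16 to 0.02). The Ras activator Sos1 stood at 0.13 (-0.02 to 0.29) and the Ras brake Rasa1 at 0.21 (0.09 to 0.32).

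All 6 phosphatases had ratios above 0, where 51.8% of all genes did. Ptprc, which encodes CD45 and both activates Lck and can restrain it, was among the most abundant, at 1181 CPM in the Dox library and 823 CPM in the untreated library and a ratio of 0.52 (0.48 to 0.56). Ptpn22, which dephosphorylates Lck and Zap70, had 89.4 CPM with Dox and 57.4 CPM without, a ratio of 0.64 (0.48 to 0.80). Ubash3b, which encodes Sts-1, a phosphatase of Zap70 and Syk, had the largest ratio of the 49 genes at 2.04 (1.34 to 3.06). It was a low gene, with 8.15 CPM and 116 counts in the Dox library and 1.84 CPM and 14 counts in the untreated library. Its relative Ubash3a stood at 115 and 104 CPM and 0.15 (0.03 to 0.27). Per length Ubash3b remained far below Ubash3a, at 0.0643 times its level with Dox (0.0528 to 0.0776) and 0.0161 times without (0.00876 to 0.0272). Ptpn6, which encodes SHP-1, stood at 0.26 (0.17 to 0.35), and Ptpn11, which encodes SHP-2, at 0.12 (0.04 to 0.20). The ubiquitin ligases Cbl and Cblb, which mark receptor chains and kinases for degradation, had almost equal ratios of 0.16 (0.08 to 0.24) and 0.17 (0.05 to 0.29).

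In the calcium and NFAT branch 6 of 6 ratios were above 0, where 51.8% of all genes were. None of the 6 passed 1.5-fold, and since few of all genes did (6.28% higher and 6.18% lower) nothing is read from that count. Nfatc1, the family member that NFAT itself induces in lymphocytes, had the largest ratio of the branch, 0.45 (0.32 to 0.57), at 127 CPM in the Dox library and 93.4 CPM in the untreated library. Nfatc2 stood at 0.30 (0.07 to 0.54) and Nfatc3 at 0.12 (0.05 to 0.19). Per length Nfatc3 was the most abundant of these factors, with 61.5 RPKM with Dox and 56.7 RPKM without. The catalytic subunits of calcineurin had ratios of 0.39 (0.17 to 0.62) for Ppp3ca and 0.12 (0.02 to 0.22) for Ppp3cb. Rcan1, an inhibitor of calcineurin that NFAT induces, had 32.8 CPM with Dox and 28.9 CPM without, and its interval held 0, at 0.18 (-0.06 to 0.42).

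**Figure D3:**
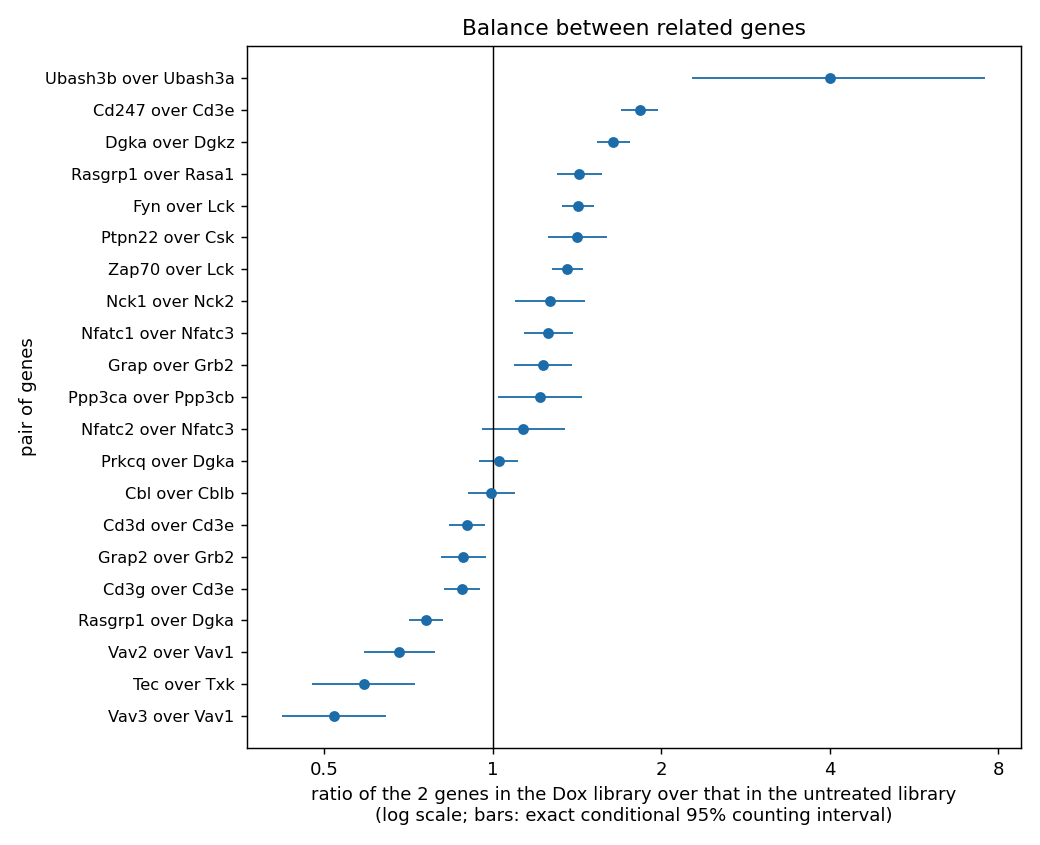
Ratio of the counts of 2 related genes in the Dox library over the same ratio in the untreated library (logarithmic horizontal axis), with exact conditional 95% counting intervals, for 21 pairs; 1 library per group. Values right of 1 mean a higher share of the gene named first with Dox, from 0.521 for Vav3 over Vav1 to 3.99 for Ubash3b over Ubash3a.

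Positive and negative regulators were set against each other by roles taken from general knowledge of the pathway, with earlier results of these data known. Of 32 positive regulators 30 passed the minimum, and 6 were at least 1.5-fold higher (Prkcq, Txk, Cd247, Skap1, Rasgrp1 and Lcp2) and 1 lower (Vav3). Of 14 negative regulators, all past the minimum, 4 were at least 1.5-fold higher (Ubash3b, Dgka, Sit1 and Ptpn22) and 0 lower. The shares of all genes past these lines were 6.28% higher and 6.18% lower. The medians were 0.28 for positive and 0.23 for negative regulators, 0.05 apart, and no error of this difference could be had from 1 library per group. Ratios ran from -0.72 to 1.15 for positive and from -0.14 to 2.04 for negative regulators. The 5 genes of mixed role (Ptprc, Ptpn11, Themis, Sh2d2a and Grap) had a median of 0.74, and with all of them counted as negative the medians were 0.28 and 0.40. The sign of the gap turned with that placement, to -0.12, and also with the Dox counts thinned to the untreated total, to -0.03, so that no direction is drawn from it.

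**Figure D4:**
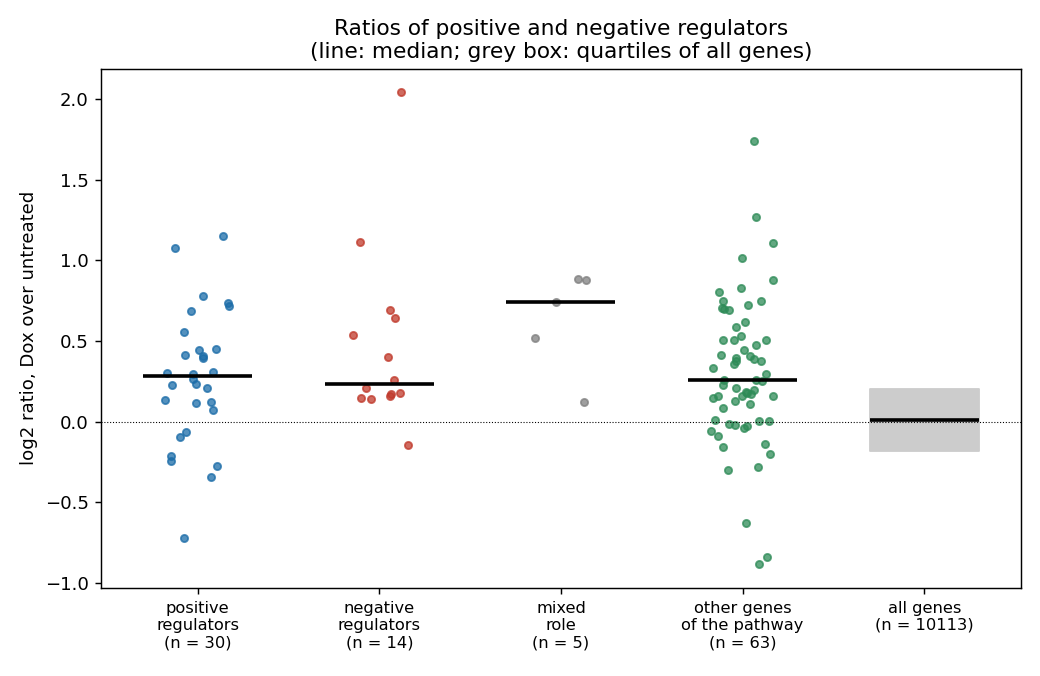
Log2 ratio of Dox over untreated (vertical axis) of each gene past 5 CPM, for positive, negative and mixed regulators and for other genes of the pathway; lines are medians and the grey box spans the quartiles of all 10113 genes past that minimum. The medians of positive and negative regulators, 0.28 and 0.23, lie above the upper quartile of all genes, 0.20.

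Genes of the same pathway outside the 51 were followed in a list of 73 coreceptors, calcium channels, Ras and MAP kinase genes, further adaptors and brakes. Of these 63 passed the minimum. This list too was chosen with earlier results of these data known. The 1.5-fold line was passed by 15 genes higher with Dox and by 3 lower, where the shares of all genes were 6.28% and 6.18%. The median was 0.26. Rasa3, a brake on Ras and Rap1, had the largest ratio of the list, 1.74 (1.57 to 1.92), at 139 CPM in the Dox library and 41.6 CPM in the untreated library. The coreceptor gene Cd8b1 followed, at 393 and 163 CPM and 1.27 (1.18 to 1.36), and then Rasgrp2, an activator of Rap1 that responds to calcium, at 186 and 86.1 CPM and 1.11 (0.99 to 1.24). Ptpn12, a phosphatase of cytoskeletal proteins, had 28.8 CPM with Dox and 14.2 CPM without, a ratio of 1.01 (0.71 to 1.34). Of the 63 genes 14 had a ratio below 0, where 4872 of all 10113 genes did. The 3 past 1.5-fold on that side were Orai3, Itpr1 and Nf1. Calcium genes went both ways, since the channel subunit gene Orai2 stood at 0.70 (0.52 to 0.89), with 69.9 CPM in the Dox library and 42.9 CPM in the untreated library. The calcium sensor genes Stim1 and Stim2 had ratios of 0.40 (0.27 to 0.52) and 0.41 (0.24 to 0.58). Orai3, a plasma membrane calcium channel subunit, had 89 counts in each library, which is 6.26 CPM with Dox and 11.7 CPM without and a ratio of -0.89 (-1.34 to -0.46). Itpr1, a calcium release channel of the endoplasmic reticulum, had 105 and 189 CPM and a ratio of -0.84 (-0.94 to -0.73). Nf1, which encodes neurofibromin and switches Ras off, stood at 45.9 CPM in the Dox library and 71.2 CPM in the untreated library, with a ratio of -0.63 (-0.80 to -0.47). The coreceptor gene Cd4 stood at 0.83 (0.67 to 0.99). The adaptor gene Dok2, an inhibitor of Ras signalling, was higher at 0.88 (0.74 to 1.02).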

How the data were processed

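The authors deposited raw counts of reads per gene, in 1 column per group. Per the submitters' processing notes, the tools were CASAVA 1.8.2 and featureCounts and the build mm10. No source used here gives the aligner, annotation, strand setting, treatment of shared reads, or how mice and sequencing runs were combined. Per the file headers, the table also gives a gene length, used for RPKM.

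Entrez Gene numbers were matched to RefSeq symbols of GRCm38.p6, for 25275 of 27179 genes. Counts were scaled with TMM factors of edgeR 4.0.16 (0.984 for the Dox library, 1.02 for the untreated library), and ratios have a prior count of 2. Intervals are Clopper-Pearson, from the part of each gene's reads found in the Dox library, or exact conditional for pairs of genes. PCR reads are not independent molecules, so intervals cover counting error only. With 1 library per group no p-value was computed. The ratio and interval steps were tested on simulated counts that held counting error only. TMM scaling and the spread between mice were not part of that test.

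The genes and lists were chosen with earlier results of these data known, and the core motif GGGAA and the 21 pairs after values were seen. Genes past 1.5-fold and 5 CPM, the receptor chains and the main kinases and scaffolds are given in both libraries, and of the other pathway genes the 8 with the largest absolute ratio past 5 CPM. Nf1, Orai2, Stim1 and Stim2 were named after their values were seen. A few results on single genes are not reported here. Exon overlaps are from GENCODE M21. Alternatives were DESeq2 1.42.0 size factors, total counts, other prior counts and CPM minimums, interval bounds, thinned Dox counts, removal of the length trend, other role assignments and, added after seeing the data, leaving out 5 genes with over 5% of their exon bases in other genes. R 4.3.3 and Python 3.11.15 were used, with scipy 1.17.1, numpy 2.4.6, matplotlib 3.10.9 and pandas 2.3.3.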

Additional observations from a re-analysis of the deposited data

How the results depend on the processing

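No paired analysis was possible because each group has 1 library. The 13 genes at least 1.5-fold higher and the 4 at least 2-fold higher stayed within 1.5 times of these counts under every alternative, at 11 and 3 with the interval bound past the fold. With no CPM minimum, 1 gene passed the 2-fold line on the lower side and 2 the 1.5-fold line, the addition being Ptcra with 3 untreated counts. On the higher side 5 genes then passed 2-fold and 14 passed 1.5-fold, the addition being Syk with 10 Dox counts and 0 untreated counts. With the interval bound, 0 genes were at least 1.5-fold lower, and 1 of the other pathway genes was. The median over the genes ranged between 0.25 and 0.30. With all mixed roles counted as negative, the negative median was 0.40 and the positive minus negative difference -0.12. With the Dox counts thinned that difference was -0.03. Of 306 values of single genes under alternatives 2 left their counting interval, Lck at -0.26 and Ptprc at 0.47, both with total counts, and 0 called ratios changed sign. Total counts in place of TMM shift the typical ratio by -0.05. Removing the trend with gene length (-0.01 per 10-fold) changed no count by over 1.5 times. The ratio of Ubash3b rests on 14 untreated counts.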
